A study of Mus musculus with 2 samples.

Results

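The genes described here are the ubiquitin-specific proteases other than Usp18, as they were expressed in mouse AE9a leukemia cells. They were chosen by symbol: Usp followed by a number, with at least 100 UMIs over the deposited matrices. A UMI marks 1 captured transcript. The symbol pattern found 57 of the 31053 genes in the files, Usp18 included, and 41 genes other than Usp18 passed the minimum, which 10600 genes of all kinds passed. The other 15 were left out. Of these, 5 had UMIs (Usp2 52, Usp27x 18, Usp44 17, Usp51 15 and Usp46os1, an antisense RNA of Usp46, 3). The remaining 10 were at 0 in both libraries: Usp9y, Usp13, Usp26, Usp29, Usp43 and the 5 genes Usp17la to Usp17le. Just inside the minimum were Usp35 with 126 UMIs and Usp54 with 382. Usp6nl fits the symbol pattern but encodes a GTPase-activating protein of Rab proteins and no protease, so 40 of the 41 belong to the enzyme family by name.

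Single-cell transcriptomes were made from 2 pools of spleen cells, 1 library per group, each from 3 recipient mice. The AE9a leukemia came from fetal liver cells transduced with AML1-ETO9a and GFP and was transplanted into C57BL/6 mice, and all cells of both groups carried floxed Usp18 and UBCER-Cre, a recombinase expressed in all tissues that tamoxifen activates. Sick recipients were injected with oil or with tamoxifen, and GFP+ Lin- c-Kit+ cells were sorted 3 days after the first injection. The genotype labels read Usp18f/f for oil and Usp18delta/delta for tamoxifen, whereas the treatment protocol describes Usp18+/f cells and heterozygous depletion, so the groups are named by injection. No label ties a cell to a mouse. Each group was thus a single library, which leaves no spread to test against. Intervals are at 95% and cover counting error alone, and a difference here means one between these 2 libraries.

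Ubiquitin is a small protein that is joined to other proteins and marks them for degradation by the proteasome, for sorting or for signaling. Ubiquitin-specific proteases (USPs) are the largest family of deubiquitinases, cysteine proteases that take ubiquitin off again, each from its own set of substrates such as histones, p53, Mdm2, the replication clamp PCNA or receptors on endosomes. Usp18 is the odd member, since it removes the interferon-induced modifier ISG15 and restrains the type I interferon receptor.

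After cells with under 500 genes or over 10% mitochondrial UMIs were left out, the oil library held 6838 cells with 66045700 UMIs and the tamoxifen library 6472 cells with 60661486 UMIs. The libraries shared 14 cell barcodes. Kit, the sorting marker, was at 171 and 232 CPM, UMIs scaled to a common library total. Lists of B cell, T and NK cell and granulocyte or monocyte markers summed to at most 1.34 CPM in either library, with Ly6g, Cd3g and Ncr1 at 0 in both. Megakaryocyte markers summed to more, 7.03 CPM in oil and 9.66 in tamoxifen, with Itga2b at 6.43 and 9.20. A UMI of that list was in 6.01% and 7.90% of cells. A list of 12 mast cell genes summed to 2994 CPM in oil and 2762 in tamoxifen, and 12 erythroid genes to 7881 and 9241. Usp18 itself had 371 UMIs (5.62 CPM) in the library labelled oil and 933 (15.4 CPM) in the library labelled tamoxifen. The log2 ratio was 1.45 (interval 1.28 to 1.63), so the level was higher in the library whose genotype label gives deletion. Whether Usp18 was deleted in these cells was not tested. The 3′ reads cannot tell whether an exon farther upstream had been removed.

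Together the 41 genes held 103228 UMIs in oil and 90983 in tamoxifen, or 0.156% and 0.150% of each library. Their levels spanned more than 2 orders of magnitude, from 0.863 CPM for Usp35 to 110 CPM for Usp1 in oil and from 0.973 CPM for Usp35 to 101 CPM for Usp15 in tamoxifen. CPM from 3′ ends counts transcripts and does not grow with transcript length, so genes can be set side by side. The median member stood at 28.1 CPM in oil and 25.2 in tamoxifen, beside 24.5 and 23.4 for the median of all genes with at least 100 UMIs. The 8 most abundant members, Usp24, Usp1, Usp15, Usp34, Usp14, Usp7, Usp9x and Usp25, held 47.7% and 46.8% of the members' UMIs. In each library 8 members were under 10 CPM.

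**Figure D1:**
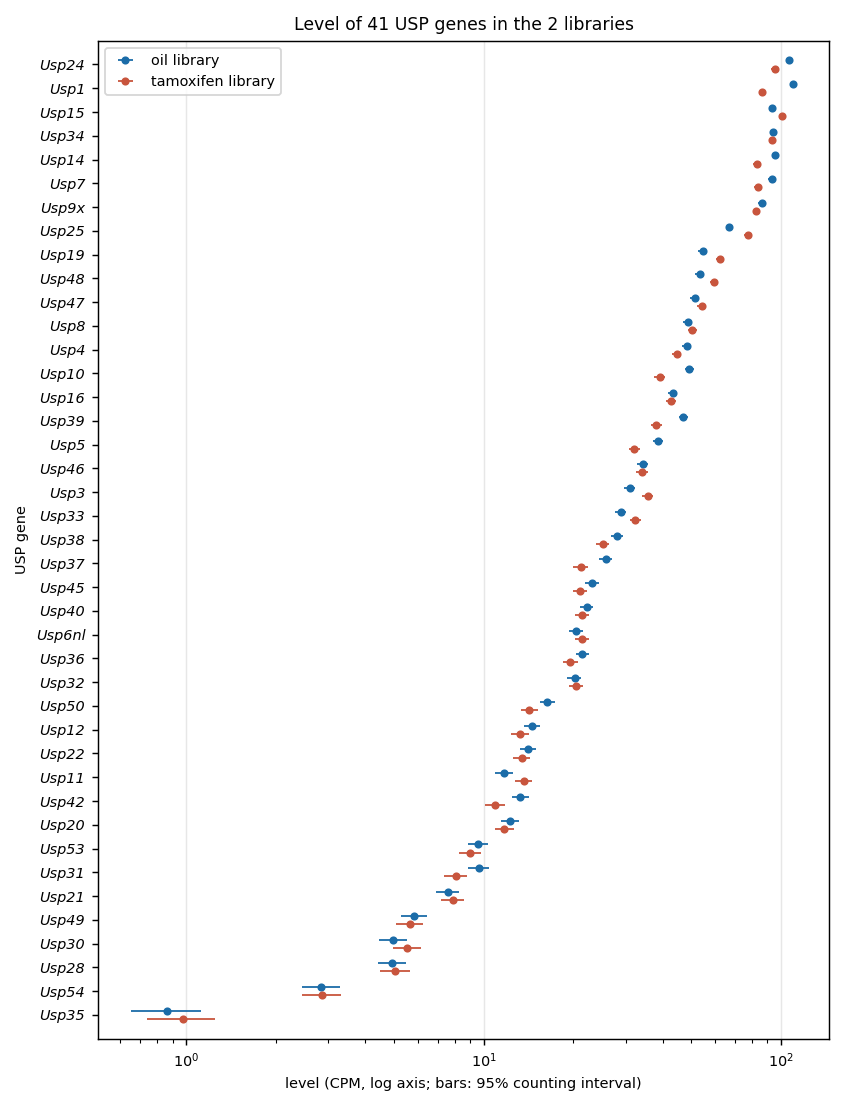
Level of each of the 41 USP genes (CPM, log axis) in the oil library (blue) and the tamoxifen library (red), with 95% counting intervals as bars. Levels ran from under 1 CPM for Usp35 to 110 CPM for Usp1, and the libraries were close to each other for most genes.

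The top of the order differed between the libraries. In oil, Usp1, which acts with Wdr48 on PCNA and Fancd2, was at 110 CPM (107 to 112) and Usp24 at 106 (104 to 109), and their intervals overlapped. Next came Usp14 at 95.6, Usp34 at 94.1, Usp15 at 93.1 and Usp7 at 93.0 CPM, no neighbors of which had intervals apart. In tamoxifen Usp15, a regulator of TGF-β signaling, led at 101 CPM (98.5 to 104), above Usp24 at 95.2 and Usp34 at 93.4, and Usp1 followed at 86.5 (84.2 to 88.9). In each library the intervals lay apart for 15 of the 40 pairs of neighbors in the order. Usp25 lay below Usp9x and above Usp19 in both, with all of these intervals apart.

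By role, the 4 genes of DNA replication and repair ranged from 23.2 CPM (Usp45, which acts on Ercc1) to 110 CPM (Usp1) in oil. The 3 genes that act on p53 or Mdm2 ran from Usp42 at 13.3 CPM in oil and 10.9 in tamoxifen to Usp7 at 93.0 and 83.5. Of the 5 genes of histone ubiquitin, Usp16, an H2A deubiquitinase, was highest at 43.2 and 42.6 CPM, and Usp22, the catalytic subunit of the SAGA deubiquitinase module, stood at 14.1 and 13.4. Usp14, which sits on the proteasome, and Usp5, which takes apart free ubiquitin chains, were at 95.6 and 38.6 CPM in oil. The 6 genes of membranes and organelles ran from Usp30 of the mitochondrial outer membrane at 4.97 CPM in oil and 5.52 in tamoxifen to the ER-anchored Usp19 at 54.5 and 62.2. Signaling genes made up the largest named group, with 7 members from Usp11 at 11.7 CPM to Usp34 at 94.1 CPM in oil.

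Most cells held UMIs of several USP genes. The median cell had UMIs of 10 members in oil and 9 in tamoxifen, and 51 and 18 cells had none. The most widely detected member was Usp24, in 56.7% of cells, in oil, and Usp15, in 54.5%, in tamoxifen. The median member was seen in 22.6% and 20.4% of cells, and in 8.31% and 7.92% once each cell was thinned to 3000 UMIs, a depth that 508 and 345 cells did not reach. All cells came from a single sort, so no other cell type gave the level expected from free RNA, and the shares follow depth as well as expression.

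For most members the share of cells was close to what their level predicts when UMIs fall on cells in proportion to depth. Usp25 was found in 43.2% of oil cells, beside 44.1% under such an even spread, and Usp19 in 38.1% beside 38.2%. Usp1 stood apart. It was found in 48.4% of oil cells and 40.8% of tamoxifen cells, where an even spread would give 59.1% and 51.1%. Single cells held up to 11 UMIs of Usp1 in oil and 15 in tamoxifen. Usp14 showed a smaller gap, at 50.3% of oil cells beside 54.8%, as did Usp10 at 32.4% beside 35.5%.

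Several members have a close paralog, and most such pairs were uneven. Usp25 made up 93.2% (92.4 to 93.9) of the UMIs of Usp25 and Usp28 in oil and 93.9% (93.2 to 94.5) in tamoxifen. Usp22 made up 99.1% and 98.9% of its pair with Usp27x, which shares its place in chromatin complexes, and 99.3% in both libraries of its pair with Usp51. Usp5 had 2547 and 1951 UMIs and its paralog Usp13 none, which allows Usp13 a share of up to 0.118% and 0.154% of the pair. Usp9x had 5687 and 5008 UMIs and Usp9y, its copy on the Y chromosome, none.

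Other pairs were both expressed. Of Usp12 and Usp46, which need Wdr48 and Wdr20 for activity, Usp12 gave 29.8% of the UMIs in oil and 28.0% in tamoxifen. Usp20 gave 29.8% and 26.6% of its pair with Usp33, Usp16 65.1% and 66.9% of its pair with Usp45, and Usp53 77.1% and 75.9% of its pair with Usp54. Within the trio of Usp4, Usp11 and Usp15, Usp15 had 1.93 times the UMIs of Usp4 in oil and 2.27 times in tamoxifen, and 7.95 and 7.41 times those of Usp11. Usp36, a nucleolar enzyme, gave 61.8% and 64.2% of its pair with Usp42, and Usp38 had 32.5 and 25.9 times the UMIs of Usp35. How reads of near-identical stretches were split between paralogs was not tested.

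The comparison of tamoxifen with oil asks what changed in leukemia cells after Usp18 was targeted, and few of the other USP genes differed by much. A difference was called where the log2 ratio was at least 0.32 in size, which is 5 UMIs against 4. None of the 41 members was higher in tamoxifen by that much, beside 6.92% of all genes tested, and 2 were lower, beside 10.8% of all genes. The log2 ratios ran from -0.34 to 0.22 with a median of -0.05, and the median of all genes was -0.06. Counting intervals lay above 0 for 8 members, beside 19.3% of all genes, and below 0 for 16, beside 39.6% of all genes, shares close to those of the members. The other 17 included 0. With TMM or median-ratio scaling 11 lay above 0 and 11 below.

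The members past the fold were Usp1 and Usp10. Usp1 was at 110 CPM in oil and 86.5 in tamoxifen (log2 ratio -0.34, interval -0.40 to -0.29). Usp10, which acts on p53 and binds the stress granule protein G3bp1, was at 49.2 and 39.1 CPM (log2 ratio -0.33, interval -0.41 to -0.26). Both lay only just past the fold, and neither did with TMM scaling, with median-ratio scaling or with a total that left out mitochondrial and ribosomal protein genes, settings in which no member was called in either direction. Usp10 shares exon sequence on the same strand with the predicted gene Gm20388.

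Next lowest were Usp39, Usp42 and Usp37. Usp39, a spliceosome protein without protease activity, had 46.9 CPM in oil and 38.1 in tamoxifen, a log2 ratio of -0.30 (-0.38 to -0.22). Usp42 had 13.3 and 10.9 CPM (log2 ratio -0.28, interval -0.43 to -0.14), and Usp37, which stabilizes cyclin A at S phase entry, had 25.7 and 21.2 (-0.28, interval -0.39 to -0.17). All 3 genes of the p53 and Mdm2 group and both genes of the proteasome group had intervals below 0, also with the other scalings. With the main scaling 39.6% of all genes had such an interval. Usp5, Usp7, Usp10 and Usp14 were also among the members higher in S or G2M cells, phases described below. All genes of that class had a median ratio of -0.23. Within G1 cells the intervals of Usp7, Usp10 and Usp42 (-0.25, interval -0.51 to 0.01) included 0, and those of Usp5 and Usp14 lay below 0.

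At the other end stood Usp11, Usp25, Usp3, Usp19 and Usp35. Usp11, a paralog of Usp4 and Usp15, had 11.7 CPM in oil and 13.6 in tamoxifen, a log2 ratio of 0.22 (0.08 to 0.36). Usp25 had 67.1 and 77.4 CPM (0.21, interval 0.15 to 0.27), Usp3, which acts on histone H2A, 31.0 and 35.7 CPM (0.20, interval 0.12 to 0.29), and Usp19 54.5 and 62.2 CPM (0.19, interval 0.12 to 0.26). Usp35, with 57 and 59 UMIs, had a ratio of 0.17 whose interval ran from -0.38 to 0.72. The other members were spread between these ends, as the plot of ratios between the libraries shows.

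**Figure D2:**
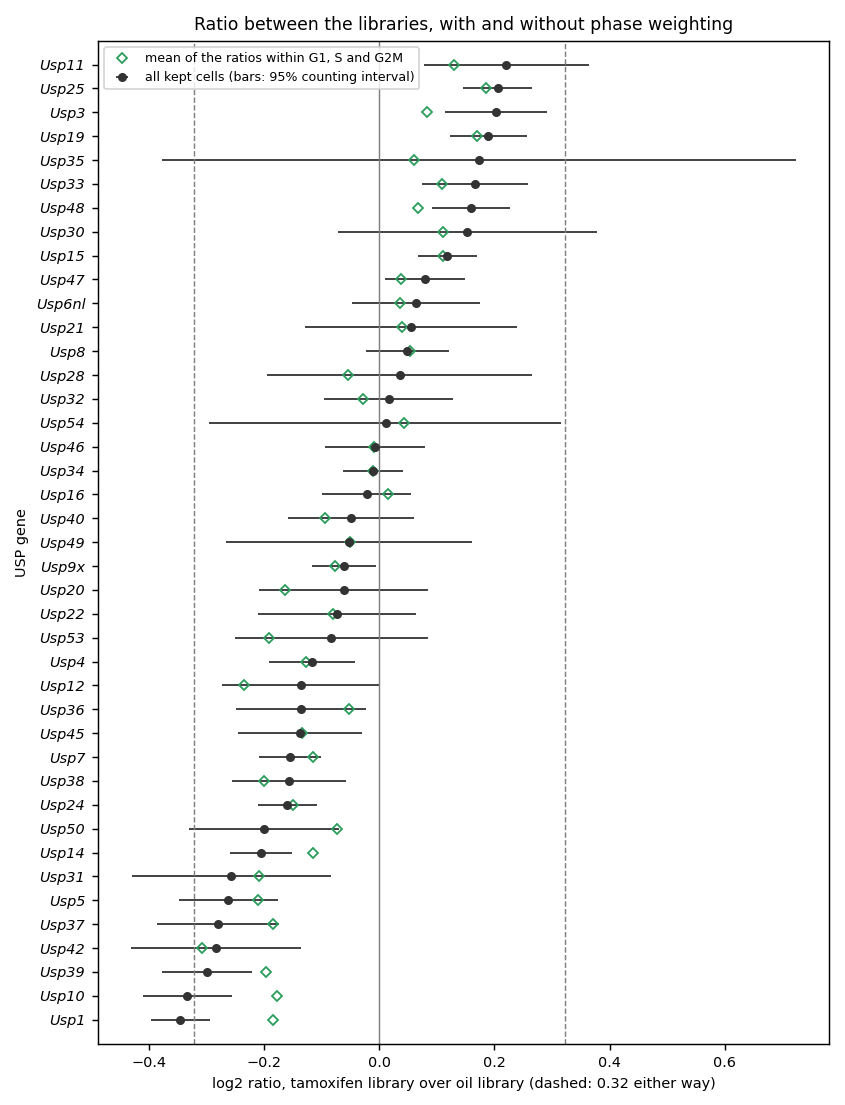
Log2 ratio of the tamoxifen library over the oil library for each USP gene, over all kept cells (black, with 95% counting intervals) and as the mean of the ratios within G1, S and G2M cells (green diamonds), with dashed lines at 0.32 either way. Only Usp1 and Usp10 lay past a dashed line over all kept cells, and no member did with equal phase weights.

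Cell cycle phase was called in each cell of at least 3000 UMIs, after thinning to that depth, from lists of S and G2M genes that held no member. Usp1 belongs to the S list in general use and was taken out of it here. In oil 42.7% of 6330 cells were called G1, 19.8% S and 37.5% G2M, and in tamoxifen 55.9%, 14.6% and 29.5% of 6127. The part of free RNA in these calls was not tested. Cells called G1 were shallower, with a median of 5966 UMIs in oil beside 12477 in S and 12722.5 in G2M.

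The USP genes split by phase, in proportions near those of all genes except for genes lower in G2M, which were fewer. In S cells 9 members were higher than in G1 cells by the same fold or more in both libraries, beside 21.9% of all genes, and 14 were lower, beside 36% of all genes. In G2M cells 8 were higher, beside 20.4%, and 9 lower, beside 34.9%. By either ratio, 11 members were higher in S or G2M, beside 2568 of 10503 genes, and 14 were lower, beside 4350. The other 16 were called in neither, beside 3604 of all genes. The sign of the S over G1 ratio was the same in both libraries for 39 of the 41 members, and that of the G2M over G1 ratio for 38. No share of all genes was set beside these counts of signs.

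Among the members that were higher, Usp1 had the widest difference of S from G1 cells. In oil it was at 44.8 CPM in G1, 158 in S and 123 in G2M cells, and in tamoxifen at 38.9, 139 and 110. The log2 ratio of S over G1 was 1.82 (1.70 to 1.94) in oil and 1.83 (1.72 to 1.95) in tamoxifen. Usp37 was highest in S cells, with 17.3, 42.5 and 21.9 CPM in oil and 15.1, 37.6 and 19.3 in tamoxifen, so that S cells were 1.30 and 1.32 above G1 on the log2 scale and G2M cells 0.35 above it in each library.

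Usp50 was higher in both S and G2M, at 8.86, 20.5 and 18.8 CPM in oil and 8.17, 20.4 and 17.7 in tamoxifen. Its gene body on chr2:126709096-126783470 (GRCm38, minus strand) overlaps that of Usp8 on the other strand without shared exon bases. Usp10 and Usp39 shared this shape. Usp39 had 29.0, 51.8 and 54.7 CPM in oil and 26.3, 44.4 and 46.9 in tamoxifen. Usp10 had 29.4, 51.5 and 59.1 CPM in oil, highest in G2M, and 27.4, 49.0 and 46.0 in tamoxifen, where the intervals of S and G2M overlapped.

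Of the proteasome group, Usp14 had 66.9, 106 and 107 CPM in oil and 61.8, 99.3 and 96.6 in tamoxifen. Usp5 passed the fold in both libraries in G2M only, at 30.9 CPM in G1 and 43.3 in G2M in oil and 24.3 and 39.3 in tamoxifen. Its log2 ratio of S over G1 was 0.29 in oil and 0.50 in tamoxifen, past the fold in tamoxifen alone. Usp7 also passed it in both libraries in G2M only, at 79.1 and 102 CPM in oil and 74.1 and 93.8 in tamoxifen. Usp31, Usp36 and Usp49 passed the fold in both libraries in S only. In G2M, Usp36 (0.42) passed it in oil alone and Usp31 (0.42) in tamoxifen alone. Usp36, which counters the degradation of Myc, had 16.9 CPM in G1 and 24.6 in S cells of oil, and 17.4 and 26.3 in tamoxifen. Usp49 was low, at 5.05 and 7.93 CPM in oil and 5.05 and 6.73 in tamoxifen, where the interval of its ratio (-0.01 to 0.83) included 0.

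**Figure D3:**
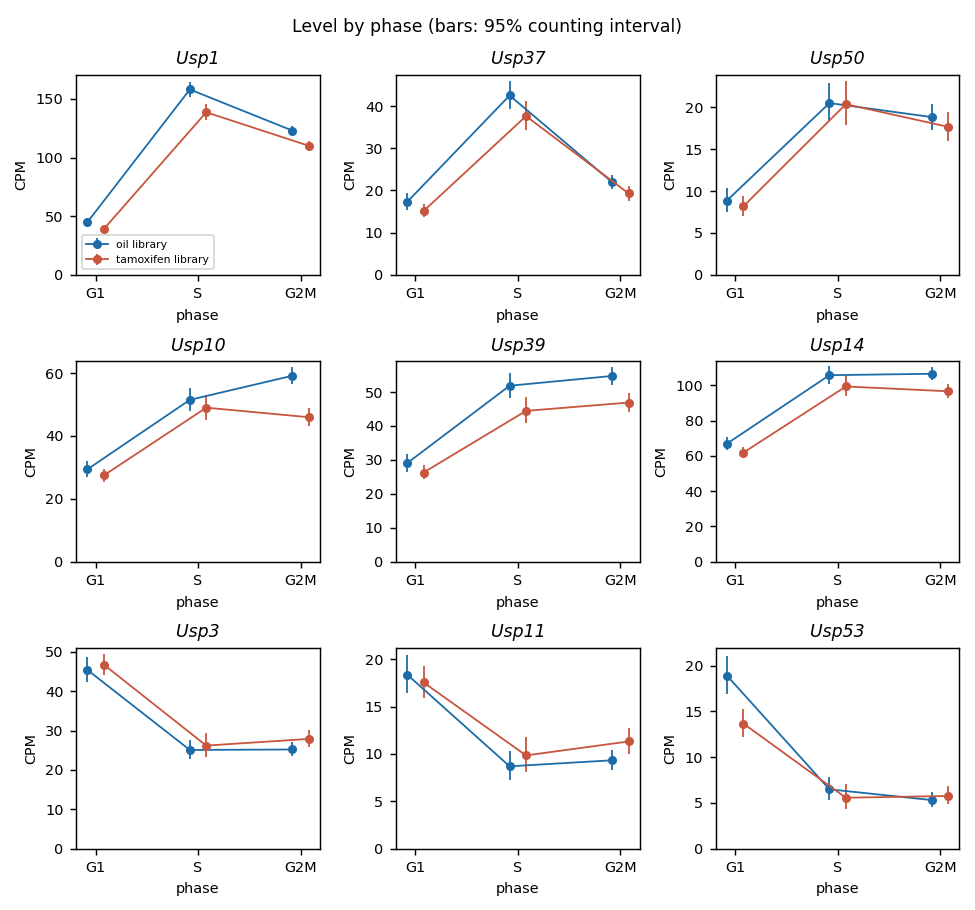
Level (CPM) in cells called G1, S and G2M of the oil library (blue) and the tamoxifen library (red) for 9 USP genes, with 95% counting intervals as bars. Usp1, Usp37, Usp50, Usp10, Usp39 and Usp14 were lowest in G1, and Usp3, Usp11 and Usp53 highest in G1, in both libraries.

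Role groups did not divide cleanly, since histone genes and Myc genes had a member on either side. Usp53 had 18.9 CPM in G1, 6.47 in S and 5.30 in G2M cells of oil, and 13.7, 5.55 and 5.74 in tamoxifen, log2 ratios of S over G1 of -1.55 (-1.88 to -1.22) and -1.30 (-1.70 to -0.91). Usp3 had 45.4, 25.1 and 25.2 CPM in oil and 46.8, 26.2 and 27.9 in tamoxifen. Usp11 had 18.4, 8.69 and 9.33 CPM in oil and 17.6, 9.85 and 11.3 in tamoxifen. The G1 level was the highest of the phases for each of these in both libraries.

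Usp20, Usp12, Usp28, Usp32, Usp48 and Usp35 were likewise lower in S and in G2M. Usp20, a paralog of Usp33 that acts in receptor trafficking, had 17.5, 9.33 and 10.4 CPM in oil, and Usp12 20.5, 10.9 and 12.6. Usp28, a Myc deubiquitinase, had 7.78, 4.57 and 3.31 CPM in oil and 6.40, 4.38 and 3.76 in tamoxifen, whereas Usp36 was higher in S than in G1. Usp48 was at 64.2 CPM in G1 and 49.2 in S cells of oil, and at 70.0 and 48.5 in tamoxifen. Usp19, Usp38, Usp40, Usp54 and Usp6nl passed the fold in both libraries in S only, with log2 ratios in oil from -0.50 to -1.56. In G2M, Usp38 (-0.33) and Usp54 (-0.85) passed it in oil alone, and Usp40 (-0.55) in tamoxifen alone.

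None of the 7 signaling genes was higher in S or G2M and 2 were lower, Usp11 and Usp12. Over all genes 21.9% were higher in S and 20.4% in G2M, and 36% and 34.9% were lower. With only 7 genes these counts are no result about the group. The paralogs of Usp11 and Usp12 differed from them. Usp15 had 96.7, 83.9 and 95 CPM in G1, S and G2M cells of oil, and Usp4 51.7, 42.9 and 48.8, neither past the fold, and Usp46 was at 35.3, 32.9 and 34.3 CPM beside the slope of Usp12. Usp34, Usp9x, Usp24 and Usp25, all among the 8 most abundant members, were also called in neither phase.

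**Figure D4:**
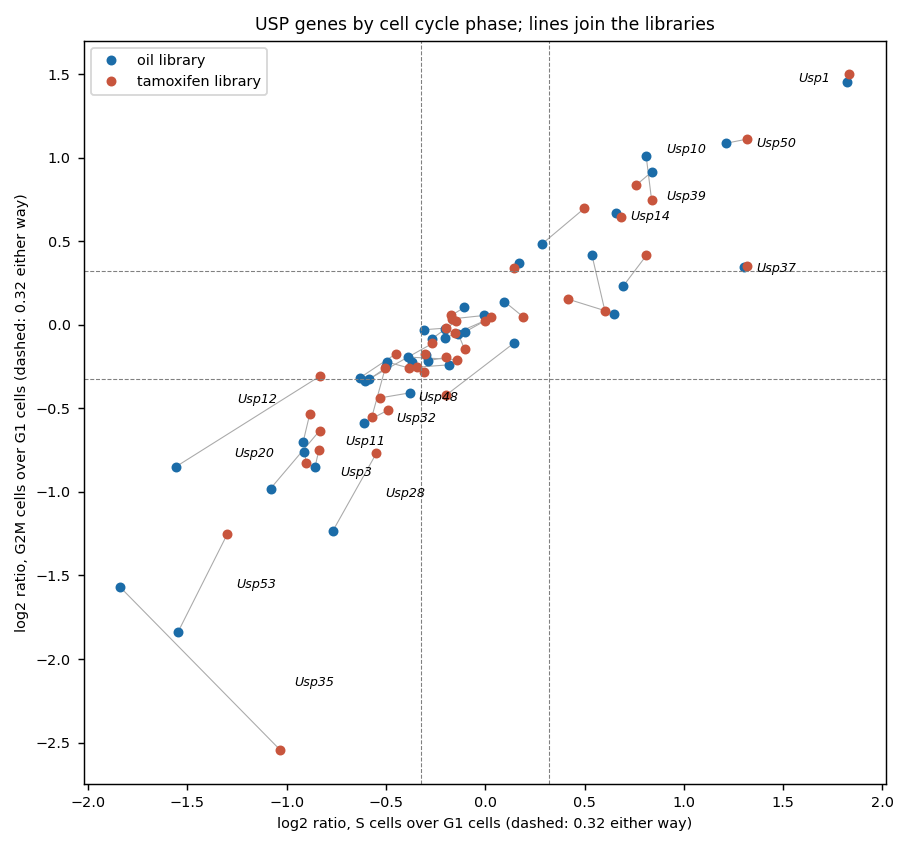
Log2 ratio of S over G1 cells (x axis) against G2M over G1 cells (y axis) for 41 USP genes in the oil library (blue) and the tamoxifen library (red), a line joining the points of each gene and dashed lines at 0.32 either way. Genes called in both ratios are named, with Usp1 at the upper right, Usp37 displaced toward S, and Usp53 and Usp35 at the lower left.

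Promoter sequence from RefSeq (GRCm38.p6) was at hand for 7 of the 11 members higher in S or G2M, 13 of the 14 lower ones and 12 of the 16 others, and Usp1 was not among them. A window of 250 bases before to 50 after the start was searched on both strands for letters bound by cell cycle factors. E2F letters (TTTCCCGC, TTTCGCGC, TTTGCCGC or TTTGGCGC) are in 2.26% of 32851 promoters, the cell cycle homology region (CHR, TTTGAA or TTCGAA) in 19.2% and CCAAT in 37.4%. Of the higher members none held the E2F letters, Usp50 held CHR letters and Usp7 and Usp49 held CCAAT. Of the lower ones Usp19 held E2F letters, Usp20 and Usp40 CHR letters and Usp3, Usp11, Usp20 and Usp28 CCAAT. None of the 12 others held any of these. The interferon response core, GAAA repeated after a spacer of 2 bases, is in 3.44% of promoters and among members was found in Usp49 alone.

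The 250 bases before the start are shown for Usp37 and Usp50, which were higher in S cells than in G1 cells, and for Usp20 and Usp3, which were lower there, with CHR and CCAAT letters in capitals. The Usp37 window lies inside the gene body as GENCODE gives it, which begins farther upstream. So does the Usp7 window, not shown here, which held CCAAT letters. Windows of some other members, Usp54 among them, lie inside the gene body as well.
Usp37, chr1:74505822-74506071, minus strand: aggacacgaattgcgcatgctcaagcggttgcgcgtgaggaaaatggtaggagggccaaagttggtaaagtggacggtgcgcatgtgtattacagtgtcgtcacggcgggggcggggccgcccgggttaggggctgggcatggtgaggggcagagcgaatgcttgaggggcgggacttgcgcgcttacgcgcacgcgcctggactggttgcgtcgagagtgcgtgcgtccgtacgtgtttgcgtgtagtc
Usp50, chr2:126783461-126783710, minus strand: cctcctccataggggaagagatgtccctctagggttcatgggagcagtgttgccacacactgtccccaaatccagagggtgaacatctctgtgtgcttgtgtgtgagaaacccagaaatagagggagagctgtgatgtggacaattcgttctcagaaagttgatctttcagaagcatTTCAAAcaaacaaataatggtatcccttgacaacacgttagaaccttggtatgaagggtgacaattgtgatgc
Usp20, chr2:30982029-30982278, plus strand: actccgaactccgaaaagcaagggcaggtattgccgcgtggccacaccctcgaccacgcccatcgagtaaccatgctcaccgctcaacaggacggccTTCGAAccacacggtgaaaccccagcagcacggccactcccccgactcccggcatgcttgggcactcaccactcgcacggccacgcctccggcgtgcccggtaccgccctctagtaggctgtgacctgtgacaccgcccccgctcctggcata
Usp3, chr9:66593116-66593365, minus strand: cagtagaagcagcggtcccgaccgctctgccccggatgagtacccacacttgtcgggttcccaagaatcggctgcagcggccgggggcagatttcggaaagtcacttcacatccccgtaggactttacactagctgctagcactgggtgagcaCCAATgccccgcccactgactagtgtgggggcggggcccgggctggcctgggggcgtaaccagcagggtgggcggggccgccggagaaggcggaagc
These Usp37 bases hold none of the letters searched, and Usp50 has its CHR letters 73 bases before the start. Usp20 has CHR letters 153 bases before the start, a stretch that reads the same on both strands. Its CCAAT lies after the start, outside the bases shown. Usp3 has CCAAT 97 bases before the start. A match is a description of the letters, not a site of binding.

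Since tamoxifen cells were more often called G1, the ratio between the libraries was also taken within each phase. All 11 members higher in S or G2M had a ratio below 0 over all cells (10 with each of the other scalings, where Usp49 was above 0), with a median of -0.26, and the 14 lower ones had a median of 0.03. Over all genes sorted in the same manner the medians were -0.23 and 0.06, so the USP genes of each class lay near the other genes of that class. With the phases weighted equally the median of the 11 was -0.18, beside -0.13 for all such genes, and that of the 14 was 0.00, beside -0.04.

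For Usp1 the ratio of tamoxifen over oil was -0.20 (-0.34 to -0.06) within G1, -0.19 (-0.28 to -0.10) within S and -0.16 (-0.23 to -0.09) within G2M, and -0.18 with equal weights. Holding its level in each phase at the mean of the libraries and changing the phase shares alone gave -0.17. The ratio of Usp1 was below 0 in every phase and smaller in size than over all cells. Usp10 had -0.10 (-0.27 to 0.07) in G1, -0.07 (-0.23 to 0.08) in S and -0.36 (-0.47 to -0.26) in G2M cells. Usp42, called in neither phase, had -0.31 with equal weights, beside -0.28 over all cells. For Usp3 the ratio of 0.20 became 0.08, for Usp11 0.22 became 0.13, and for Usp25 0.21 became 0.19.

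The cells varied along 3 programs that are not phases, and the members were compared between the 20% of cells with the highest share of UMIs from a list and the other cells of the same library. For 12 mast cell genes, 14 members were higher by the same fold in both libraries, beside 34.3% of all genes, and 7 were lower, beside 21.3%. The 7 were Usp1, Usp10, Usp14, Usp36, Usp37, Usp39 and Usp50. The cells high in mast cell genes were 87.3% G1 in oil and 90.1% in tamoxifen, beside 31.5% and 47.3% of the other cells, and they were shallower, at a median of 4914.5 UMIs beside 10799 in oil. The comparison was therefore repeated among G1 cells alone. The part of depth was not tested.

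Among G1 cells the difference of Usp1 went from -1.29 to -0.22 in oil and from -1.22 to -0.14 in tamoxifen. That of Usp50 went from -1.55 to -0.83 and from -1.43 to -0.77, and that of Usp14 from -0.89 to -0.50 and from -0.71 to -0.30. Usp11, higher in cells with more mast cell RNA by 1.17 and 0.90, was higher by 0.60 and 0.65 among G1 cells. Usp48 kept 0.46 in each library, from 0.65 and 0.61. Usp53 went from 1.41 to 0.39 and from 1.01 to 0.37.

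For interferon-stimulated genes, 4 members were higher in the top cells, beside 11.4% of all genes, and Usp1 alone was lower, beside 8.44%. The 4 were Usp3, Usp20, Usp25 and Usp53. The top cells were 64.1% G1 in oil, beside 37.3% of the others, and 74.1% in tamoxifen, beside 51.3%. The list held few UMIs even there, a median share of 0.065% in oil, beside 0.019% in the others, and 0.129% beside 0.026% in tamoxifen. The top cells were also shallower, at a median of 6508.5 UMIs beside 10089.5 in oil and 6921 beside 9138 in tamoxifen. The part of depth in this ranking was not tested. Among G1 cells Usp25, which acts in antiviral signaling, was at 0.35 in oil, beside 0.34 among all cells, and at 0.22 in tamoxifen, down from 0.41 and no longer past the fold. Usp3 went from 0.48 in each library to 0.14 and 0.16, and Usp53 from 0.64 and 0.71 to 0.18 and 0.07. Usp20 went from 0.34 and 0.48 to 0.08 and 0.16. The G1 intervals of Usp3, Usp20 and Usp53 included 0 in both libraries. Usp1 went from -0.53 and -0.58 to -0.16 (-0.39 to 0.08) and 0.13 (-0.08 to 0.34), intervals that also include 0.

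For erythroid genes, Usp46 alone was higher, beside 7.87% of all genes, and 4 members were lower, beside 11.5%. Usp46 was higher by 0.40 (0.25 to 0.54) in oil and 0.39 (0.23 to 0.53) in tamoxifen, and by 0.41 and 0.69 among G1 cells. The lower members were Usp10, Usp37, Usp40 and Usp54. Usp40 was lower by -0.95 (-1.21 to -0.71) and -0.80 (-1.05 to -0.55), and by -1.20 and -0.45 among G1 cells. Usp10 was at -0.44 and -0.46, and at -0.59 and -0.84 among G1 cells, the direction being the same in each comparison. Top cells were 52.8% G1 in oil beside 40.1% of the others, and 57.8% beside 55.4% in tamoxifen.

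**Figure D5:**
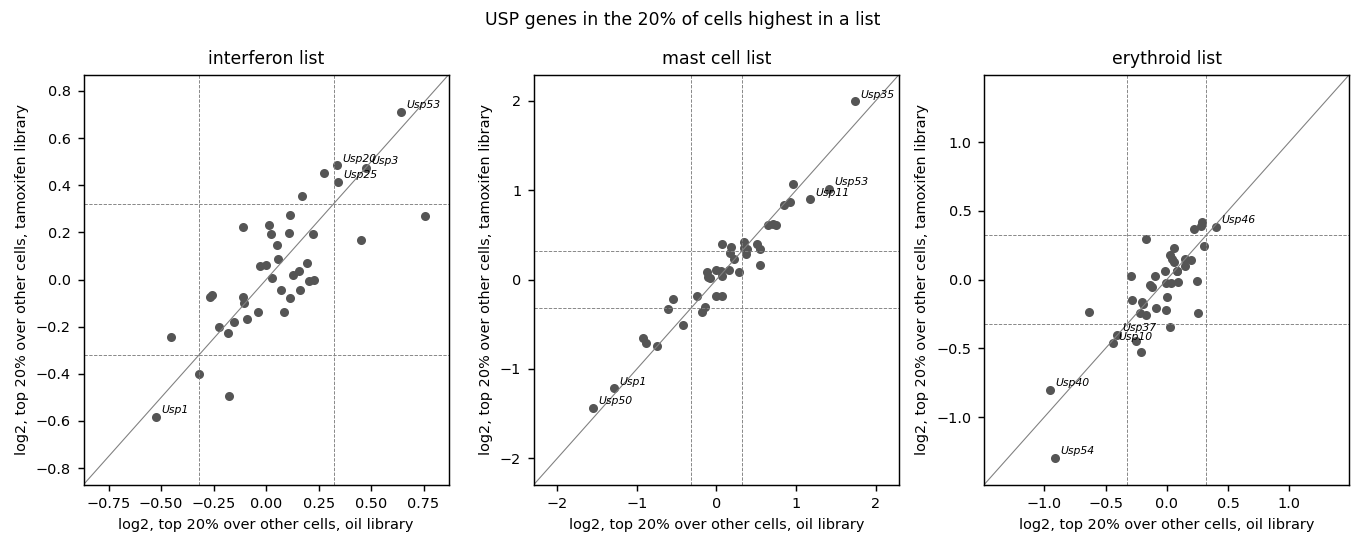
Log2 ratio of the 20% of cells highest in interferon, mast cell or erythroid genes over the other cells, in the oil library (x axis) and the tamoxifen library (y axis), 1 point per USP gene, with dashed lines at 0.32 either way and a diagonal of equal values. All genes called in both libraries are named for the interferon and erythroid lists, and those beyond 1 in oil for the mast cell list, where members spread furthest.

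Genes that work beside the USPs were measured in the same comparison of tamoxifen with oil. Of 38 deubiquitinases of other families in the files, 32 passed the minimum. By the fold 1 was higher, beside 6.92% of all genes, and 4 were lower, beside 10.8% of all genes. Their median log2 ratio was -0.03, beside -0.06 for all genes. The higher one was Zufsp at 0.38, followed by Cyld, which trims linear and K63 chains, at 0.30 and Stambp at 0.29. The lower ones were Uchl3 at -0.41, its near copy Uchl4 at -0.40, Tnfaip3, a brake on NF-κB, at -0.34 and the proteasome subunit Psmd7 at -0.33. The counts of this list are for the main scaling alone. Tnfaip3 and Psmd7 lay close to the fold, as did Usp1, which no longer passed it with the other scalings. Cyld and Stambp lay just short of it. Uchl3 and Uchl4 may share reads, and their values are uncertain.

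Of 16 partners and substrates of USPs that passed the minimum, none was higher, beside 6.92% of all genes, and 3 were lower, beside 10.8%. These were Fancd2 at -0.42, Fanci at -0.35 and G3bp1 at -0.34, and the median of the list was -0.16. All 3 were also higher in S than in G1 cells, on the log2 scale in oil by 2.79 for Fancd2 and 2.50 for Fanci, substrates of Usp1, and by 1.41 for G3bp1, which binds Usp10. Genes of that class had a median ratio between the libraries below 0, as given above. Wdr48, the shared activator of Usp1, Usp12 and Usp46, was at 25.5 CPM in oil and 24.4 in tamoxifen, a ratio of -0.06 (-0.17 to 0.04), and Wdr20 was at 0.05. The 3 highest of the list were Atxn7l1 at 0.30, Atxn7 at 0.13 and Wdr20. The counts of this list are also for the main scaling alone. Fanci and G3bp1 lay close to the fold, as Usp1 did, and Atxn7l1 lay just short of it.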

How the data were processed

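The authors deposited UMI counts per gene and cell, made from reads of the Chromium V3 kit with Cell Ranger 3.0.2 on mm10, without normalization. Seurat is also named in the notes of the submitters and was not used here. The members and gene lists were chosen with earlier results of these data known. Named are the 10 most abundant members, those past a fold, the 5 highest and 5 lowest ratios, paralog pairs, those at the minimum and the 3 highest and 3 lowest of each related list. The result of 1 related list is not reported here.

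A minimum of 500 genes and a maximum of 10% mitochondrial UMIs were set for cells, and doublets were not removed. UMIs were summed per library (66045700 in oil, 60661486 in tamoxifen) and given as CPM with exact Poisson intervals, ratios with exact conditional binomial intervals and shares with Clopper-Pearson intervals, all at 95% and for counting error only. Groups came from the injection in the labels, 1 library each, so no test was run. Phases were called with scanpy on cells thinned to 3000 UMIs. Shares after thinning are expected values over all draws. A share at 0 was given a limit of 3 counts.

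Positions are from GENCODE M21, in which 30934 of 31053 genes were found, and promoters from RefSeq. Counting was not known to use strand, and antisense exons overlap Usp34, Usp14, Usp16 and Usp37 among others. Exons of Usp10 and Usp49 overlap Gm20388 and Gm20517 on the same strand. Steps were tested on simulated counts. Alternatives were other cell filters, TMM with edgeR, the median ratio with DESeq2, totals that leave out ribosomal protein and mitochondrial genes, equal weight per cell, other minimums, folds, thinning depths and program cuts. The work used edgeR 4.0.16 and DESeq2 1.42.0 in R 4.3.3, and scanpy 1.11.5, scipy 1.17.1, numpy 2.4.6, matplotlib 3.10.9 and pandas 2.3.3 in Python 3.11.15.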

Additional observations from a re-analysis of the deposited data

Results flagged for a closer look

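The 936 barcodes of the oil library and 839 of the tamoxifen library that the cell filter left out entered no comparison above, and 2 of the 41 members were higher in tamoxifen there by an interval above 0. Usp28 had 17 UMIs in oil and 35 in tamoxifen there, a log2 ratio of 0.9834 (interval 0.11 to 1.91). Usp36, with 53 UMIs in oil and 83 in tamoxifen, differed by 0.5887 on the same scale (0.07 to 1.11). The intervals of 4 members lay below 0, Usp5 at -0.64 (-0.999 to -0.28), Usp4 at -0.39 (-0.68 to -0.10), Usp1 at -0.38 (-0.64 to -0.12) and Usp24 at -0.35 (-0.56 to -0.14). The sum of the members differed by -0.13 (-0.18 to -0.08). These intervals cover counting error only, and 41 members were looked at. No share of all genes in these barcodes was set beside the counts, so they are no result about the members.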

How the results depend on the processing

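No paired analysis was possible because a group is a single library, and no replicate could be left out. The number of members higher in tamoxifen was 2 (Usp3 and Usp30) under a strict filter (a minimum of 1000 genes, a maximum of 5% mitochondrial UMIs) that kept 673 and 771 cells. The number lower was 4 under it (Usp1, Usp37, Usp49 and Usp50), 4 without the 6% of cells with the most UMIs (Usp1, Usp31, Usp37 and Usp39), and 0 with TMM scaling, median-ratio scaling, the total without mitochondrial and ribosomal protein genes or a fold of 1.5. Ratios over 0 in place of below 0 were 0.0979 for Usp31, 0.02146 for Usp38 and 0.01373 for Usp36 under the strict filter, and for Usp9x 0.004752 with TMM, 0.002248 with the median ratio and 0.01978 without mitochondrial and ribosomal protein genes. The cause was not tested. Of 328 ratios between the libraries under alternatives, 268 moved within their counting interval. The median share of cells was 2.90% and 2.74% at 1000 UMIs, 13.2% and 11.8% at 5000, and 22.6% and 20.4% without thinning. The members lower with interferon genes were 4 for the top 10% of cells, and those higher with erythroid genes 0 for the top 30%. Phase levels from thinned UMIs, chosen after seeing the data, moved 21 of 164 phase ratios past their counting interval and turned Usp34 in oil (S over G1 0.01282), and each other phase alternative moved at most 6.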
